A study of Mus musculus with 9 samples.

Results

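Expression of 9 genes of regulated secretion and vesicle transport was followed in Lim1 mutant and wild-type renal vesicles: Cadps2 and its relative Cadps, the class V myosins Myo5a and Myo5b, and the small GTPases Rab3a, Rab3b, Rab3d, Rab8a and Rab11a. Every probe set of the array whose single gene symbol in the platform annotation was one of these genes was used, which gave 20 of the 45101 probe sets and 9 of the 18194 genes so named. The genes were chosen by function around Cadps2 and Myo5b, and those 2 were selected on their mutant minus wild-type differences, which ranked high in an earlier look at these data. That comparison is therefore given for all 9 genes as a description, with levels, differences and standard errors. Renal vesicles, the first epithelial stage of the nephron, had been captured by laser microdissection from kidneys at E12.5. There were 4 samples from Lim1 mutant kidneys and 5 from wild-type kidneys, each of roughly 30 to 50 vesicles and each run on 1 array. The Lim1 gene is called Lhx1 today, and its LIM homeodomain protein regulates transcription in the first nephron epithelium. The labels state neither the allele, the strain and the cells that carried the mutation, nor the number of embryos or litters behind a sample. They call the samples biologically independent.

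Regulated secretion moves cargo to the cell surface in vesicles that wait for a signal before they fuse. CAPS proteins, encoded by Cadps and Cadps2, prepare dense-core vesicles for that fusion, and Rab3 proteins sit on such vesicles and bring effectors to them. Class V myosins carry vesicles along actin filaments. Myosin Vb works with Rab11a and Rab8a in the delivery of membrane to the apical surface of epithelial cells, a surface that forms when mesenchyme becomes the renal vesicle.

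Of the 20 probe sets, 16 had a mean at or above the limit for testing, the 40th percentile of the mean log2 signal. They covered 8 of the 9 genes, and Rab3b was represented by a dim probe set alone. Just inside the limit lay 1449260_at of Rab3d, with a mean log2 signal of 7.32, and just outside it 1422589_at of Rab3a, at 7.13. Among the 16, 8 differences lay below 0 and 8 above, with a median of -0.10 on the log2 scale, beside 0.03 over all 27022 probe sets tested. At 3 of the 16 every mutant array read below every wild-type array, and at 1 every mutant array read above. Over all probe sets tested, 0.725% lay without overlap in the first direction and 1.66% in the second. At an adjusted p of 0.05 in limma, 1 of the 16 was called, that of Cadps2, against 0.0333% of all probe sets tested. Without wild-type arrays 1 and 3 limma called none of the 16 and none of all probe sets. This comparison chose the genes, so nothing is read from these shares.

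The arrays themselves set some limits. Their median signals ranged from 144 to 195. Wild-type arrays 3 and 1 stood apart most, at a mean correlation of 0.783 and 0.802 to the others across the tested probe sets, where the remaining 7 arrays had 0.826 to 0.864 (probe sets are no independent replicates). Lhx1 read 6.88 to 10.5 in the mutants and 2327 to 17587 in the wild type at 1421951_at, and 4108 to 4951 in the mutants and 1696 to 18555 in the wild type at 1450428_at. All 11 measured renal vesicle markers of 12 listed lay above the limit for testing, and their summed signal was 138752 to 156402 in the mutants and 109320 to 289070 in the wild type. Much of that sum came from Ccnd1, Wnt4 and Jag1. Gene by gene, 7 of the 11 differences lay below 0 and 4 above. The largest were Dkk1 at -1.81 ± 0.56 and Dll1 at -1.33 ± 0.48, both overlapping and both named after their values were seen. For Gapdh, the ratio of 3 prime over 5 prime control signal, which rises with RNA breakdown and with amplification, was 17.8 to 61.4 in the mutants and 12.4 to 87.6 in the wild type.

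Cadps2 differed most among the 9 genes. Its only probe set used, 1451499_at, read 190.3, 66.0, 16.2 and 15.2 on mutant arrays 1 to 4, against 3489, 4714, 6015, 2879.5 and 1814 on wild-type arrays 1 to 5. The groups did not come near each other: the highest mutant array stood at 190.3 and the lowest wild-type array at 1814. Mean signals were 72.0 ± 82.4 in the mutants (SD, n = 4) and 3782 ± 1630.0 in the wild type (SD, n = 5). The log2 difference of mutant minus wild type was -5.26 ± 0.53. It was -4.97 without wild-type arrays 1 and 3. Mutant arrays 3 and 4 read lowest, at about the same level, and mutant array 1 read highest of the mutants. Differences are on the scale log2(signal + 42.41), which understates changes of dim probe sets, and 2 of the 4 mutant signals lie below that constant. The probe set passed the limit for testing, a mean log2 signal of 7.17, through the wild-type arrays. They averaged 11.8 where the mutant arrays averaged 6.55. In captured tissue of this kind, fewer cells of a type and less RNA per cell cannot be told apart.

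Within the wild type, Cadps2 was highest on array 3, at 6015, and lowest on array 5, at 1814. Wild-type array 3 also held the highest summed signal of neural and neuroendocrine markers (12962, against 1535 to 3606 on the other wild-type arrays and 1515 to 2054 on the mutant arrays), with 8 of 10 measured markers above the limit for testing and Tubb3 and Hand2 below it. Of the 10, 8 had differences below 0, and the part of neural or neuroendocrine cells in the Cadps2 difference was not tested. Endothelial markers, 12 measured, summed to 5422 to 7378 in the mutants and 14533 to 31714 in the wild type. Cldn5 made up much of this, and the other 11 markers summed to 4812 to 6140 in the mutants and 4941 to 22469 in the wild type, with Pecam1 and Tie1 below the limit for testing. On wild-type arrays 1 to 5 those 11 markers summed to 4941, 6641, 22469, 16274 and 4972. Cadps2 read 3489, 4714, 6015, 2879.5 and 1814 there. The sums rest on a few bright genes such as Egfl7, at 1705 to 2780 in the mutants and 1697 to 6742 in the wild type. All 12 endothelial differences lay below 0, and the part of endothelial cells in the Cadps2 and Myo5b differences was not tested.

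Ureteric bud markers, 13 measured with Hoxb7 and Gata3 below the limit, summed to 17625 to 38080 in the mutants and 25119 to 79050 in the wild type, and wild-type array 2 alone stood above the mutant range. In the mutants much of that sum came from Wfdc2, at 10219 to 27973 in the mutants and 6801 to 16911 in the wild type. Gene by gene, 10 of the 13 bud differences lay below 0, among them Ret at -2.43 ± 1.26 and Calb1 at -2.21 ± 1.15, both overlapping. Gata3 was without overlap, at 4.44 to 10.7 in the mutants and 15.04 to 2141 in the wild type. These 4 genes were named after their values were seen, and the part of bud cells in the Cadps2 and Myo5b differences was not tested. The sums of 10 stromal markers were 15003 to 45703 in the mutants and 18612 to 123564 in the wild type, with array 3 the highest. Col3a1 gave 81376 of the 123564, and 6 of the 10 stromal differences lay below 0. Meis1, named after its values were seen, was without overlap and higher in the mutants. It read 6182 to 7848 in the mutants and 2895 to 4755 in the wild type, a difference of 0.85 ± 0.25. The part of stromal cells was not tested. The sums of 7 erythroid markers were 33596 to 118817 in the mutants and 50231 to 155629 in the wild type. Most of each erythroid sum came from Hbb-y, and Hba-a1 lay below the limit for testing. Of the 7 erythroid differences, 6 lay below 0. The sums of 8 cap mesenchyme markers were 25001 to 32888 in the mutants and 22089 to 34420 in the wild type. Most of it came from Eya1, Sall1 and Itga8, and 4 of the 8 differences lay above 0. Meox1, named after its values were seen, was without overlap, at 934 to 2729 in the mutants and 61.4 to 879 in the wild type, a difference of 2.18 ± 0.71. Six2, named likewise, stood at 0.88 ± 0.40 with overlap. In the other direction lay Osr1, at -1.26 ± 0.63, and Cited1, at -0.99 and below the limit for testing, both with overlap. The part of cap mesenchyme cells was not tested.

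The start of Cadps2 is shown because no other of the 9 genes differed as much. The window runs from 250 bases before to 50 after the RefSeq start, on chr6:23839372-23839671, minus strand, GRCm38.p6, with each CG pair in capitals.
Cadps2 promoter: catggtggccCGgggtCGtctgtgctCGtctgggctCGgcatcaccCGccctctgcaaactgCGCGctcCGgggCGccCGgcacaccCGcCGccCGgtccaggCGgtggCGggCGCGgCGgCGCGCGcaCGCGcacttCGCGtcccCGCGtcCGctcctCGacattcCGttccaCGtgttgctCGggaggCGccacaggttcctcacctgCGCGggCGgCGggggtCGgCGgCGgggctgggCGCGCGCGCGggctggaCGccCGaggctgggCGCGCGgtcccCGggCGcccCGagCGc
It holds 54 CG pairs and has a GC content of 79.7%. Of the 32851 promoter windows of this length in the RefSeq table, 0.347% hold at least as many pairs, the median window holds 7 and 94.6% hold at least 1. The letters TAATTA, a core read by many homeodomain proteins, and TGACGTCA, the cAMP response element, read the same on both strands and cannot overlap each other. TAATTA is in 5.29% of all windows and TGACGTCA in 1.79%. Neither was found in the 9 windows that matched 8 of the 9 genes, which says only that these letters are not in these windows. No window matched Myo5b.

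Cadps, the relative of Cadps2 best known from neurons and endocrine cells, did not share its pattern. Its probe set 1448955_s_at, of a kind that can match transcripts of more than 1 gene, read 349.9, 221, 273 and 59.0 on mutant arrays 1 to 4, against 54.3, 59.5, 322, 481 and 155 on wild-type arrays 1 to 5. The groups overlapped over nearly their whole ranges, and 3 arrays read lowest: mutant array 4 and the first 2 of the wild type. The log2 difference was 0.14 ± 0.61, smaller than its standard error.

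Myo5b, the myosin of apical and recycling vesicles, had differences below 0 at each of its 3 probe sets, and at 2 of them the groups did not overlap. At the probe set that represents the gene, 1452298_a_at, which matches several transcripts of the gene, the signal was 947, 939, 783 and 826 on mutant arrays 1 to 4, against 3575, 3137, 3159, 4567 and 5187 on wild-type arrays 1 to 5. The mutant arrays lay close together and all below the lowest wild-type array. Mean signals were 874 ± 82.1 in the mutants (SD, n = 4) and 3925 ± 913 in the wild type (SD, n = 5), with a log2 difference of -2.11 ± 0.32. Without wild-type arrays 1 and 3 it was -2.19.

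The dimmest Myo5b probe set, 1441104_at, read 66.6, 23.9, 81.3 and 17.4 on mutant arrays 1 to 4, against 232, 279, 92.3, 217 and 1085 on wild-type arrays 1 to 5, a log2 difference of -1.97 ± 0.59. All mutant arrays were again below all wild-type arrays, but the gap was narrow, since mutant array 3 and wild-type array 3 were neighbours. This probe set passed the limit for testing, a mean log2 signal of 7.17, through the wild-type arrays. They averaged 8.35 where the mutant arrays averaged 6.39. Mutant arrays 2 and 4 read below the added constant. The difference was -2.51 with the constant at the 10th percentile of all signals and -1.16 with it at their median. Without wild-type array 5 the probe set fell below the limit, and its difference was -1.50. At 1437698_at the values were 330.3, 2069, 900.0 and 626 on mutant arrays 1 to 4, against 2517, 1939.7, 119, 2961 and 5861 on wild-type arrays 1 to 5, with a difference of -1.09 ± 0.93. There the groups overlapped: mutant array 2 read above wild-type array 2, and wild-type array 3 read lowest of all 9 arrays. Without wild-type arrays 1 and 3 the difference at this probe set was -1.96, without wild-type array 5 it was -0.64 and without mutant array 1 it was -0.66. Wild-type array 5 was highest at all 3 probe sets. The order of the wild-type arrays differed from that of Cadps2, whose lowest wild-type array was array 5.

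**Figure D1:**
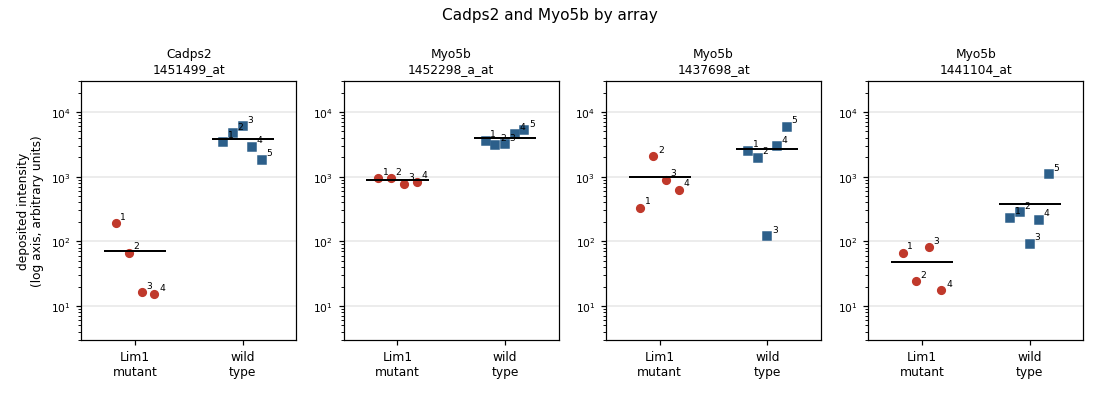
Deposited signal of the Cadps2 probe set and the 3 Myo5b probe sets on each array (log axis, arbitrary units), Lim1 mutants in red circles and wild type in blue squares, with the array number beside each point and the group mean as a bar. At Cadps2 the mutants lie at or below 190.3 and the wild type at or above 1814, while at 1437698_at of Myo5b the groups overlap.

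Myo5a, the myosin known from melanosomes and neurons, had no common direction across its probe sets. At 1436051_at, which represents the gene, the signal was 4830.1, 2135, 969 and 2212 on mutant arrays 1 to 4, against 4711, 3221, 2158, 4782 and 1627 on wild-type arrays 1 to 5. The groups overlapped, with mutant array 3 lowest and mutant array 1 highest, and the log2 difference was -0.46 ± 0.48. The probe set 1431320_a_at had a difference of 0.62 ± 0.58, with 447 to 663 in the mutants and 41.9 to 525 in the wild type. Its wild-type range was wide because array 5 read 41.9 and the others 337 to 525. At 1419754_at the signal varied more within the groups than between them, from 29.9 to 521 in the mutants and 10.6 to 1825 in the wild type, and the difference was 0.12 ± 1.04.

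Among the Rab3 genes, 1 probe set of Rab3d was the only one of the 20 with all mutant arrays above all wild-type arrays. Rab3d is known from secretory granules of exocrine cells. At 1449259_at it read 393, 559, 373 and 304 on mutant arrays 1 to 4, against 51.5, 18.8, 49.3, 32.7 and 26.8 on wild-type arrays 1 to 5. The lowest mutant array was at 304 and the highest wild-type array at 51.5. Mean signals were 407 ± 108 in the mutants (SD, n = 4) and 35.8 ± 14.2 in the wild type (SD, n = 5), with a log2 difference of 2.42 ± 0.36. This probe set passed the limit for testing, a mean log2 signal of 7.17, through the mutant arrays, which averaged 8.73 where the wild-type arrays averaged 6.31. The wild-type signals are low beside the constant of 42.41, and the difference was 3.03 with the constant at the 10th percentile of all signals and 1.42 with it at their median. Without wild-type arrays 1 and 3 it was 2.64.

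Macrophage markers, 9 measured with Ptprc and Aif1 below the limit, summed to 3167 to 5478 in the mutants and 1425 to 19887 in the wild type. That sum was 3411, 2211, 19887, 2613 and 1425 on wild-type arrays 1 to 5. The Rab3d probe set 1449259_at read 51.5, 18.8, 49.3, 32.7 and 26.8 there. Csf1r alone gave 16543 of the 19887. Of the 9 differences, 7 lay above 0. The part of such cells in the Rab3d signal was not tested.

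The other 3 Rab3d probe sets, listed in the annotation under the same source sequence as 1449259_at, did not show this difference. The one that represents the gene, 1418890_a_at, read 212, 425, 114 and 118 on mutant arrays 1 to 4, against 185, 305, 51.4, 67.5 and 169 on wild-type arrays 1 to 5, and its difference was 0.33 ± 0.52. Mutant array 2 was highest and wild-type array 3 lowest, and the groups overlapped. At 1449260_at the difference was 0.13 ± 0.41, with 73.5 to 276 in the mutants and 80.7 to 162 in the wild type. The fourth, 1418891_a_at, lay below the limit for testing, with 48.4 to 92.2 in the mutants and 10.9 to 159 in the wild type. The result at 1449259_at is thus that of 1 probe set in 4, and the stretch of the transcript that each reads was not analysed here.

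The start of Rab3d is shown beside that of Cadps2 because the largest differences in each direction belonged to these 2 genes. The window lies on chr9:21918134-21918433, minus strand, GRCm38.p6, with CG pairs in capitals.
Rab3d promoter: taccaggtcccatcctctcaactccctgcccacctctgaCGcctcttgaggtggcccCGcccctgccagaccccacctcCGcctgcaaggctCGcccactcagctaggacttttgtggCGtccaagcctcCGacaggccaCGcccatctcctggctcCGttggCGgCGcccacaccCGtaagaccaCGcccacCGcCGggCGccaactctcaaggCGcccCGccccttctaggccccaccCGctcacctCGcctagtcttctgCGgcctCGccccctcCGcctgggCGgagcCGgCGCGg
It holds 26 CG pairs, a number reached by 16.9% of all windows, and its GC content is 71.0%. Over the 9 windows the count of CG pairs ran from 8 at Rab3b to 54 at Cadps2.

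Rab3a, the Rab3 protein of synaptic vesicles, read 2393, 3721, 2719 and 3513 on mutant arrays 1 to 4, against 3583, 2196, 3879, 2356 and 1719.6 on wild-type arrays 1 to 5 at 1459980_x_at, a kind of probe set that can also bind similar sequences. The groups overlapped, the mutant arrays lay wholly inside the wild-type range, and the difference was 0.21 ± 0.34. Its other probe set, 1422589_at, was below the limit for testing, with 15.8 to 396 in the mutants and 24.6 to 143 in the wild type, and mutant arrays 2 and 4 read above all wild-type arrays. Rab3b, known from epithelial and pituitary cells, was dim on every array, with 18.4 to 41.3 in the mutants and 16.0 to 101 in the wild type at 1422583_at. At this level a difference in Rab3b was not detectable.

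**Figure D2:**
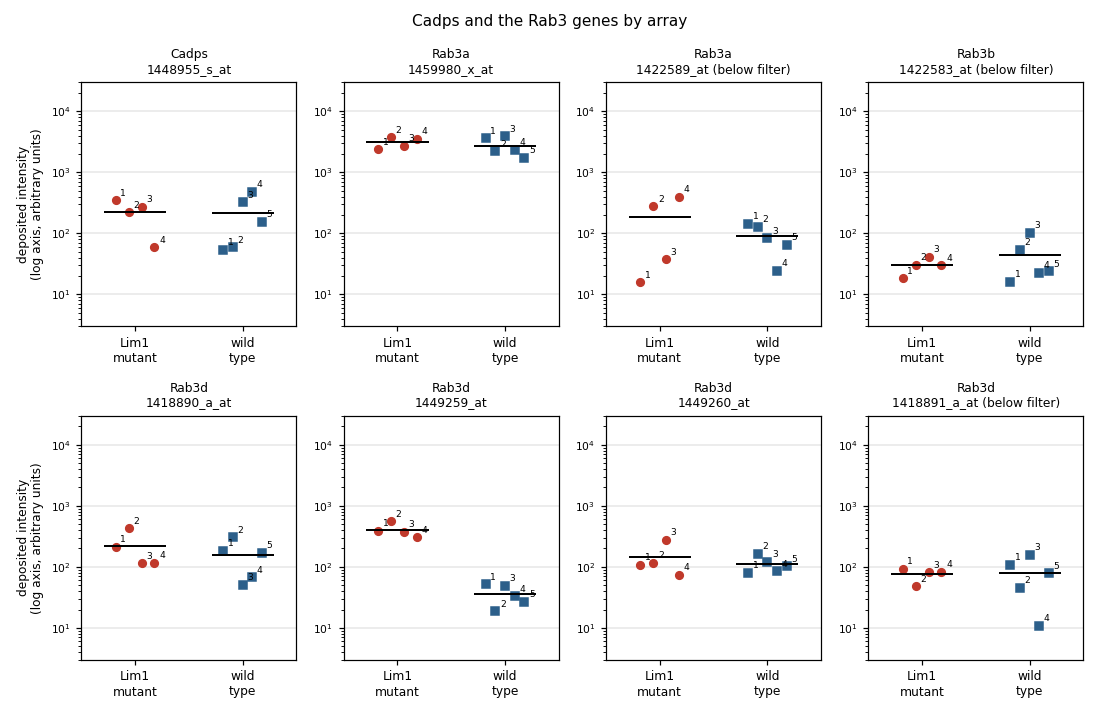
Deposited signal of the probe sets of Cadps, Rab3a, Rab3b and Rab3d on each array (log axis, arbitrary units), Lim1 mutants in red circles and wild type in blue squares, with array numbers and the group mean as a bar. Only 1449259_at of Rab3d separates the groups, at 304 to 559 in the mutants and 18.8 to 51.5 in the wild type.

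Rab11a, the GTPase of recycling endosomes that binds myosin Vb, was bright on all arrays and had differences below 0 at both probe sets. At 1449256_a_at the signal was 5298, 2799.6, 4313 and 6939.5 on mutant arrays 1 to 4, against 2547, 10297, 11576, 6851 and 11115 on wild-type arrays 1 to 5, a log2 difference of -0.69 ± 0.44. Wild-type array 1 read lowest of all 9 arrays there, and the mutant arrays lay inside the wild-type range. At 1434549_at the signal was 2673, 1398, 1599 and 4015 on mutant arrays 1 to 4, against 2925, 4934, 3682, 5623 and 4722 on wild-type arrays 1 to 5, a difference of -0.92 ± 0.36. Mutant arrays 1 to 3 read below every wild-type array, and mutant array 4 read above wild-type arrays 1 and 3. Without wild-type arrays 1 and 3 the differences were -0.98 and -1.16. At 1449256_a_at the difference was -1.06 without wild-type array 1 and -0.45 without mutant array 2.

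Rab8a, which acts in transport to the apical surface and the cilium, read 3353, 2278, 4608 and 4067 on mutant arrays 1 to 4, against 3328, 4358, 7547, 4373 and 3017 on wild-type arrays 1 to 5 at 1418692_at, with a difference of -0.32 ± 0.34. The groups overlapped, and wild-type array 3 stood above the rest. Its second probe set, 1440620_at, had a difference of the opposite sign, 0.25 ± 0.52, with 213 to 369 in the mutants and 77.7 to 551 in the wild type. The third, 1457624_at, was below the limit for testing, with 5.67 to 58.8 in the mutants and 4.68 to 54.3 in the wild type.

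**Figure D3:**
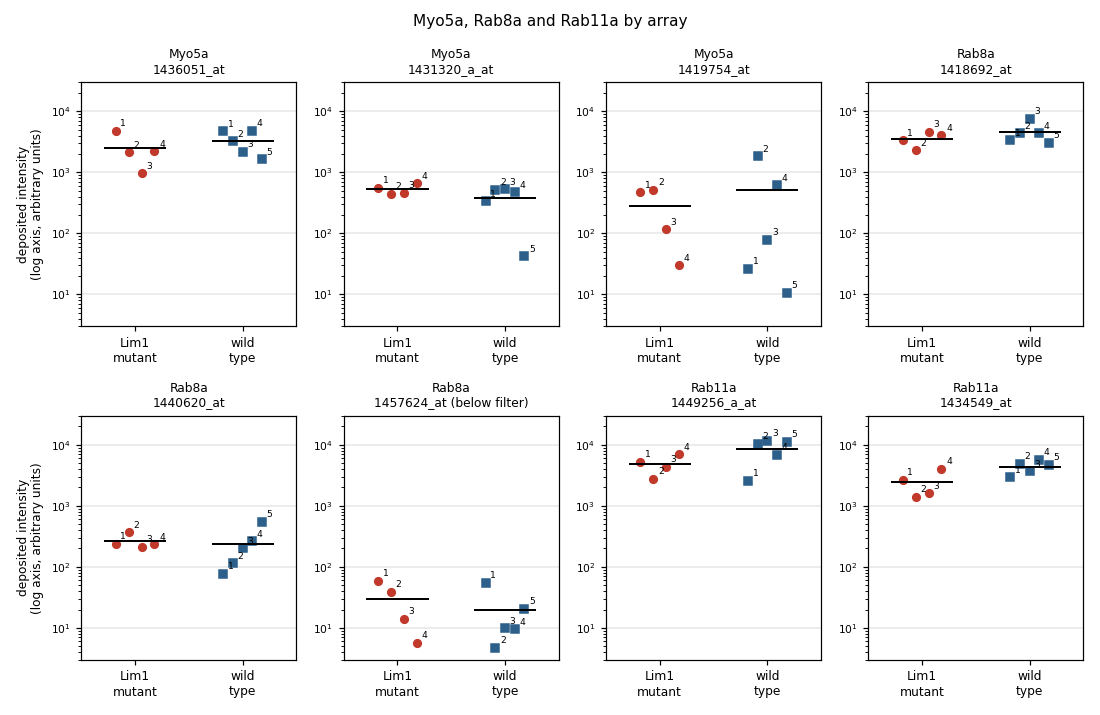
Deposited signal of the probe sets of Myo5a, Rab8a and Rab11a on each array (log axis, arbitrary units), Lim1 mutants in red circles and wild type in blue squares, with array numbers and the group mean as a bar. The groups overlap at all 8 probe sets, and at 1434549_at of Rab11a mutant arrays 1 to 3 lie below the wild type.

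**Figure D4:**
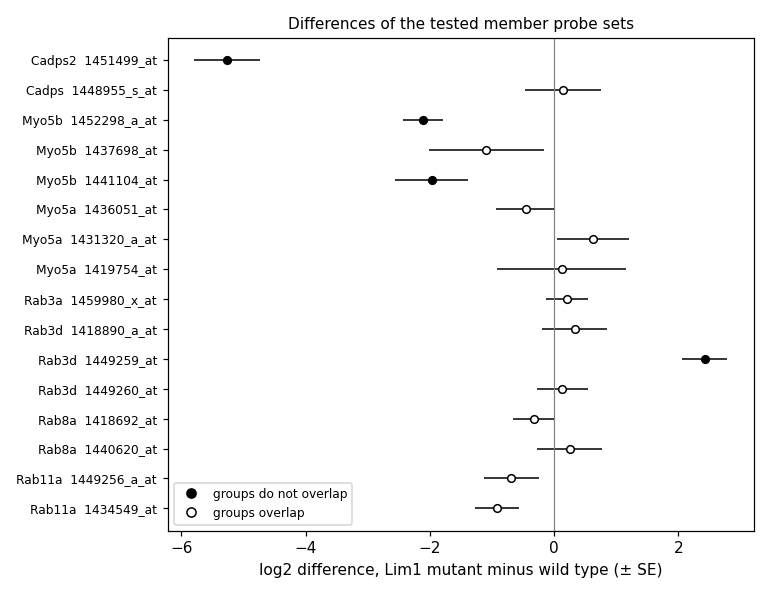
Log2 difference of Lim1 mutant minus wild type, with its standard error, for the 16 tested probe sets, filled where the groups do not overlap. Cadps2 stands at -5.26, 2 Myo5b probe sets at -2.11 and -1.97 and 1 Rab3d probe set at 2.42, and the other 12 lie between -1.09 and 0.62.

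The genes that work around these 9 were compared next, in 6 lists of 84 genes, of which 79 were on the array under a single symbol and 64 were tested, 1 probe set a gene. No gene of the 6 lists passed limma at an adjusted p of 0.05, which 0.0529% of all genes tested did. At an unadjusted p under 0.05 in limma stood 7 of the 64, beside 7.73% of all genes tested. Of the 64, 31 differences lay below 0 and 33 above, with a median of 0.04, and the median over the 13226 genes tested was 0.07. Groups did not overlap at 3 of the 64 (4.69%), against 2.93% of all genes tested.

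Among regulators and effectors of Rab3, 5 of 10 differences lay below 0 and 5 above, with a median of 0.03. Rph3al, also called Noc2, an effector of Rab3 and Rab27 on secretory granules, was the one gene of the list without overlap. It read 1089, 842, 807 and 324 on mutant arrays 1 to 4, against 3075, 1412, 1694, 3318 and 3394 on wild-type arrays 1 to 5. Its log2 difference was -1.74 ± 0.47 (limma adjusted p = 0.575), so it did not pass. Gdi2, which holds Rab proteins in the cytosol and was the brightest of the list, had a difference of 0.14 ± 0.12 (limma adjusted p = 0.872).

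Among partners of Rab11, Rab8 and myosin V, 9 of 17 differences lay below 0 and 8 above, with a median of -0.03, and 2 genes were without overlap, both higher in the mutants. Rab11b, the close relative of Rab11a, read 2953, 8118, 4775 and 3922 on mutant arrays 1 to 4, against 2609, 2825, 1667, 2416 and 2201 on wild-type arrays 1 to 5. Its difference was 0.98 ± 0.35 (limma adjusted p = 0.696), opposite in sign to that of Rab11a, while 2 further Rab11b probe sets stood at -0.69 and -0.39. Rab11fip4, a Rab11 effector, read 1915, 1382, 1952 and 1573 on mutant arrays 1 to 4, against 549.9, 712, 61.2, 1267 and 921 on wild-type arrays 1 to 5. The difference was 1.59 ± 0.66 (limma adjusted p = 0.735), with 0.23 and -0.16 at its other probe sets, and wild-type array 3 was far below the others. Neither gene passed. Dynll1, a light chain shared by myosin V and dynein and the brightest of the list, had a difference of 0.04 ± 0.13 (limma adjusted p = 0.976).

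The other 4 lists had no gene without overlap. In the priming and docking list 4 of 12 differences lay below 0, with a median of 0.23, and the brightest gene, Napa, an adaptor of the NSF ATPase, was at 0.16 ± 0.34. Stxbp5, or tomosyn, which binds syntaxin and restrains SNARE assembly, was named after its values were seen, as it had the largest difference of the 64 genes. It read 561, 76.9, 429.7 and 1109.6 on mutant arrays 1 to 4, against 1594, 989, 3329.9, 3015 and 1204 on wild-type arrays 1 to 5, and its difference was -2.13 ± 0.65 (limma adjusted p = 0.647), so it did not pass. Mutant array 4 lay above wild-type array 2, and the other mutant arrays lay below all wild-type arrays. The other tested probe set of Stxbp5 did not share this difference and stood at -0.09. Of the exocytic SNAREs, the proteins that fuse vesicle and target membrane, 8 of 11 lay below 0, with a median of -0.17, and Vamp3 was at 0.03 ± 0.37. Of the exocyst, the complex that tethers vesicles at the plasma membrane, 3 of 9 lay below 0, with a median of 0.31, and Exoc3 was at 0.48 ± 0.33. Of the dense-core granule cargo and processing genes 5 of the 11 on the array were tested, the other 6 being too dim, and 2 of the 5 lay below 0, with a median of 0.41. Its brightest gene, Cpe, the carboxypeptidase of prohormone processing, read 12553, 15909, 12153 and 9992 on mutant arrays 1 to 4, against 20288, 15490.1, 1619, 13017 and 4730.5 on wild-type arrays 1 to 5. The groups overlapped, and the Cpe difference was 0.65 ± 0.63 (limma adjusted p = 0.89).

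**Figure D5:**
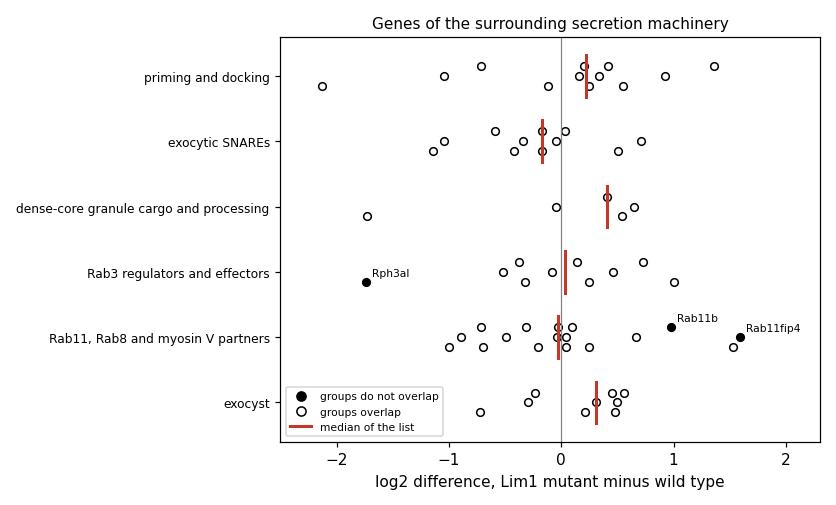
Log2 difference of Lim1 mutant minus wild type for each of the 64 tested genes of the 6 lists (points, filled and named where the groups do not overlap), with the list median as a red bar. The medians lie between -0.17 and 0.41, and Rph3al, Rab11b and Rab11fip4 are the genes without overlap.

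The genes with the most similar patterns were sought over the 9 arrays among 13225 other genes, by the root mean square distance between log2 profiles centred on their own mean. This is a description, and genes with a large difference between the groups come first by construction. Nearest to Cadps2 were Kif26a at a distance of 1.03, Cldn5 at 1.22, 4930523C07Rik at 1.34, Crem at 1.35 and Hs3st3b1 at 1.37, where the Cadps2 profile itself has a root mean square size of 2.69. Crem, a transcription factor of the cAMP response, shared with Cadps2 the highest mutant value on array 1. Its signal was 1881, 437, 363 and 61.6 on mutant arrays 1 to 4, against 1939, 3675, 5875, 3288 and 4628 on wild-type arrays 1 to 5. No mutant array reached the lowest wild-type array, although mutant array 1 came close to wild-type array 1.

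Nearest to Myo5b, whose profile has a size of 1.07, were Prss23 at 0.44, 2610301B20Rik at 0.46, Has2 at 0.47, Cask at 0.48 and Rph3al at 0.49. Prss23 is a serine protease, Has2 makes hyaluronan, and Cask is a scaffold protein of cell junctions and synapses. Cask read 2006, 1939, 1622 and 1513 on mutant arrays 1 to 4, against 4514, 5217, 4675, 3569.9 and 5119 on wild-type arrays 1 to 5, with a log2 difference of -1.35 ± 0.27. All mutant arrays were below all wild-type arrays. Seen from Cadps2, Myo5b stood at place 17, at a distance of 1.75, which is more than the size of the Myo5b profile itself. Seen from Myo5b, Cadps2 stood at place 11702 of the 13225. This distance counts the size of a profile as well as its shape. Profiles of size 2.69 for Cadps2 and 1.07 for Myo5b lie far apart whatever their shapes. These places therefore do not tell whether the 2 genes rise and fall together. On the log2 scale both genes lay below their own mean on every mutant array and above it on every wild-type array. They were chosen on that group difference.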

How the data were processed

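Per the labels' protocols, captured RNA went through 2 rounds of amplification and a biotin label. The authors deposited 1 linear intensity per probe set and array, made with GCOS, per the submitters' processing notes. Neither the version of GCOS nor its algorithm was given in the sources used here. Trimmed by 2% at each end, the mean of each array was 1500, so the deposited intensity values had been scaled. Signals above are as deposited.

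For the differences, log2(intensity + 42.41), the constant being the 25th percentile of all values, was quantile normalised, since array medians differed by 0.349 on that scale. The 64 control probe sets were left out, and 27022 of the other 45037, at or above the 40th percentile of the mean, were fitted (R 4.3.3, limma 3.58.1: lmFit and eBayes with trend, two-sided, on group alone), with Benjamini-Hochberg adjustment over all 27022. The fit was tested on simulated data. The probe set of highest mean log2 signal stood for its gene. The platform annotation gave 34958 probe sets a single symbol. The number of arrays limits the precision.

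The genes and lists were chosen with earlier results of these data known. Named genes were all 9 members, list genes past the threshold or without overlap (at most 4 a list), the brightest gene of a list, the 5 nearest patterns to Cadps2 and to Myo5b, and Lhx1. Outside this rule, Stxbp5 and individual cell type markers were named after their values were seen. Alternatives covered scaling, filter, constant, variance trend, array weights, left-out arrays, the replicate number and averaged probe sets.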

Additional observations from a re-analysis of the deposited data

Results flagged for a closer look

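Of 46 groups of values, those of the 20 probe sets and of the 3 list genes without overlap in either group of arrays, Dixon's test set 1 array apart from its group. Chance does so in about 1 group of 20, or 2.3 here. At 1441104_at of Myo5b, wild-type array 5 read 1085, against 92.3 to 279 on the other wild-type arrays.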

How the results depend on the processing

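The Cadps2 difference lay between -5.95 and -4.03 over 19 alternatives. The value with the constant at the median of all signals was -4.03, as a larger constant compresses dim values. With single arrays left out it was -5.67 to -5.03. The Myo5b difference was -2.20 to -1.99 when single arrays were left out, and the mean over its 3 probe sets was -1.72. That of 1449259_at of Rab3d lay between 1.42 and 3.03. Cadps2 was called in limma in 17 of its 19 alternatives. Not called in the main run, Myo5b at 1452298_a_at and Rab3d at 1449259_at were each called in 3 alternatives. These were the runs without quantile normalisation, without the variance trend and with array weights. The comparison chose the genes, so nothing is read from these calls. Signs of the small differences were less stable. That of 1419754_at of Myo5a was kept in 10 of 19 alternatives, as was that of 1418891_a_at of Rab3d, and that of Cadps in 15 of 19.

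Over all probe sets, limma called 9, and 3 to 8 with single arrays left out (3 without wild-type array 2 or 4 or mutant array 2 or 3, 4 without wild-type array 5 or mutant array 4, and 5 without mutant array 1). Without wild-type arrays 1 and 3 it called 0 (2013 at an unadjusted p under 0.05). No gene of the 6 lists was called in any alternative run. The labels do not say whether the replicate numbers shared by the groups pair the arrays. Deviations of same-numbered arrays correlated at -0.105 to 0.054, and those of differently numbered arrays at -0.116 to 0.134. So few noisy pairs cannot decide whether same-numbered arrays share a weaker effect. With the replicate block, 0 probe sets were called in limma (1756 at an unadjusted p under 0.05), and the Cadps2 and Myo5b differences were -5.48 and -2.01. Probe sets near the limit for testing, such as those of Rab3d, rest on low signal.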
